A study of Mus musculus with 20 samples.

Results

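The mRNA levels of neurotrophins and their receptors were followed through 6 genes that were chosen by name, in cTKO mice and their littermate controls and in the regions neocortex and hippocampus. They are the ligands Bdnf and Ntf3, the receptor tyrosine kinases Ntrk2 (TrkB) and Ntrk3 (TrkC), the p75 receptor Ngfr and the sorting receptor Sort1. Each of the 6 had 1 row among the 24421 genes counted in every library. All 6 passed the main filter on low counts, a CPM above 1 in 5 or more libraries. RNA-seq libraries were made from the 2 regions at 3 months of age, with 5 libraries per genotype and region and 20 libraries in all. cTKO mice carried floxed alleles of App, Aplp1 and Aplp2, which encode the amyloid precursor protein family, together with Camk2a-Cre, whose promoter is active in excitatory neurons of the forebrain after birth. Controls carried the same floxed alleles without Cre and are called wild type in the labels. Mice of both sexes on a mixed C57BL/6 J and 129 background were used, and the labels do not say which libraries of the 2 regions came from the same mouse. Glia, vessels and inhibitory neurons were not targeted by the deletion but contribute to every library.

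Neurotrophins are secreted as precursors that can be cut to mature ligands. Mature BDNF acts mainly through TrkB and mature NT-3 (Ntf3) mainly through TrkC, which signal through the MAP kinase, PI3 kinase and phospholipase C pathways. The precursors bind p75 together with sortilin, the product of Sort1, which also sorts BDNF within the cell. In the adult forebrain Bdnf is made largely by excitatory neurons, its transcription rises with neuronal activity, and it is known for its part in synaptic plasticity and memory.

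Total counts ranged from 12169474 to 25331954 per library, so that 3 counts correspond to between 0.118 and 0.247 CPM (counts per 1000000 counts of the library), a floor for counting error alone. Every CPM value uses TMM library sizes, and libraries are numbered 1 to 5 within each group. App ranged from 1371 to 1812 CPM in the 10 control libraries and from 336 to 462 CPM in the 10 cTKO libraries. Aplp1 ranged from 1129 to 1337 and from 264 to 391 CPM, and Aplp2 from 495 to 834 and from 234 to 295 CPM. Markers of dentate granule cells summed to between 179 and 319 CPM in the hippocampus and between 14.1 and 22.5 CPM in the neocortex. Of 10 markers of embryonic tissue, the sum was 997 CPM in neocortical cTKO library 5 and 612 CPM in hippocampal cTKO library 4, and between 49.6 and 383 CPM in the other 18 libraries. The 10 markers were Hbb-bh1, Hbb-y, Hba-x, H19, Igf2, Afp, Hoxa9, Hoxb9, Hoxc8 and Hoxd9. Hoxa9 was at 0 counts in all 4 groups. Hoxb9 and Hoxc8 were at 0 in both neocortical groups, and Hoxd9 in both hippocampal groups. Hoxc8 was also at 0 in cTKO hippocampus. The 2 libraries with the highest sums are called those with embryonic transcripts below, and which of the 10 markers rose is not given.

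The 6 genes lie on 6 chromosomes of GRCm38 (mm10), the assembly the reads were mapped to. In GENCODE M21, Bdnf spans chr2:109674700-109727007 on the plus strand, Ntf3 chr6:126101412-126166910 on the minus strand and Ntrk2 chr13:58806569-59133970 on the plus strand. Ntrk3 spans chr7:78175959-78738012 and Ngfr chr11:95568818-95587735, both on the minus strand, and Sort1 spans chr3:108284082-108361511 on the plus strand. Gm45346 overlaps Bdnf on the opposite strand and has no row in the counts, and whether counting used the strand is not stated, so reads of the 2 genes cannot be told apart. Ntrk2, Ntrk3 and Sort1 also overlap genes that have no row in the counts.

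Bdnf transcripts start at several promoters, and counts per gene do not separate them. RefSeq (GRCm38.p6) lists 7 Bdnf start sites, 2 of Ntf3 and 1 each of Ngfr and Ntrk2 in the sequences used here. The 250 bases before each start were searched on both strands for TCGTG, the core bound by the activity-regulated factor Npas4, which reads CACGA on the other strand, and for CGTCA, the half-site bound by CREB, which reads TGACG on the other strand. The Npas4 core stood in 2 of the 7 Bdnf windows and the CREB half-site in 1 of them, beside 13.3% and 17.8% of 32851 windows of all genes. These 2 Bdnf windows are printed because Npas4 was the transcription regulator on the lists below that was called in both regions. They are written 5′ to 3′ on the plus strand with both motifs in capitals.
Bdnf, chr2:109674450-109674699: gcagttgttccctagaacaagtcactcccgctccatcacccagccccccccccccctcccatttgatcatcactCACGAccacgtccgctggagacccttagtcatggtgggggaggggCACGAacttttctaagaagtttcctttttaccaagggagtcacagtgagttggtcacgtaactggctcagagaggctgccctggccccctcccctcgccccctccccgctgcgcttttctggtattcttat
Bdnf, chr2:109692186-109692435: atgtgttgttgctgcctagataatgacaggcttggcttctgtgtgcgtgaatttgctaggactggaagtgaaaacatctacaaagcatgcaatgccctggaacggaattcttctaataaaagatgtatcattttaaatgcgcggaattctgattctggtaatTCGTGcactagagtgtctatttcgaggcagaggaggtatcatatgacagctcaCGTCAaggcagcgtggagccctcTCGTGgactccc
In the first window CACGA begins 176 and 131 bases before the start site. In the second, TCGTG begins 88 and 12 bases and CGTCA 35 bases before it. These matches are letters in a window and are no measure of binding.

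Levels were compared between genes only per kilobase of exon. In control neocortex the order by median CPM per kilobase was Sort1 (94.5), Ntrk2 (49.7), Bdnf (6.03), Ntrk3 (2.86), Ntf3 (0.910) and Ngfr (0.423). Only the last 2 of these overlapped over the 5 libraries, with 0.627 to 1.15 for Ntf3 and 0.333 to 0.657 for Ngfr. In control hippocampus the order was Sort1 (104), Ntrk2 (41.5), Bdnf (6.92), Ntf3 (3.97), Ntrk3 (3.01) and Ngfr (0.700), so that Ntf3 stood above Ntrk3 on this measure. Their ranges, 3.22 to 4.80 and 2.88 to 3.23, overlapped only at their ends. The lengths join all annotated exons of a gene, 30.2 kilobases for Ntrk3 and 1.71 for Ntf3. The order of these 2 depends on that choice, since their medians there were 90.7 CPM for Ntrk3 and 6.81 CPM for Ntf3. Ngfr and neocortical Ntf3 rested on few reads, 21 to 110 and 9 to 38 counts per library.

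**Figure D1:**
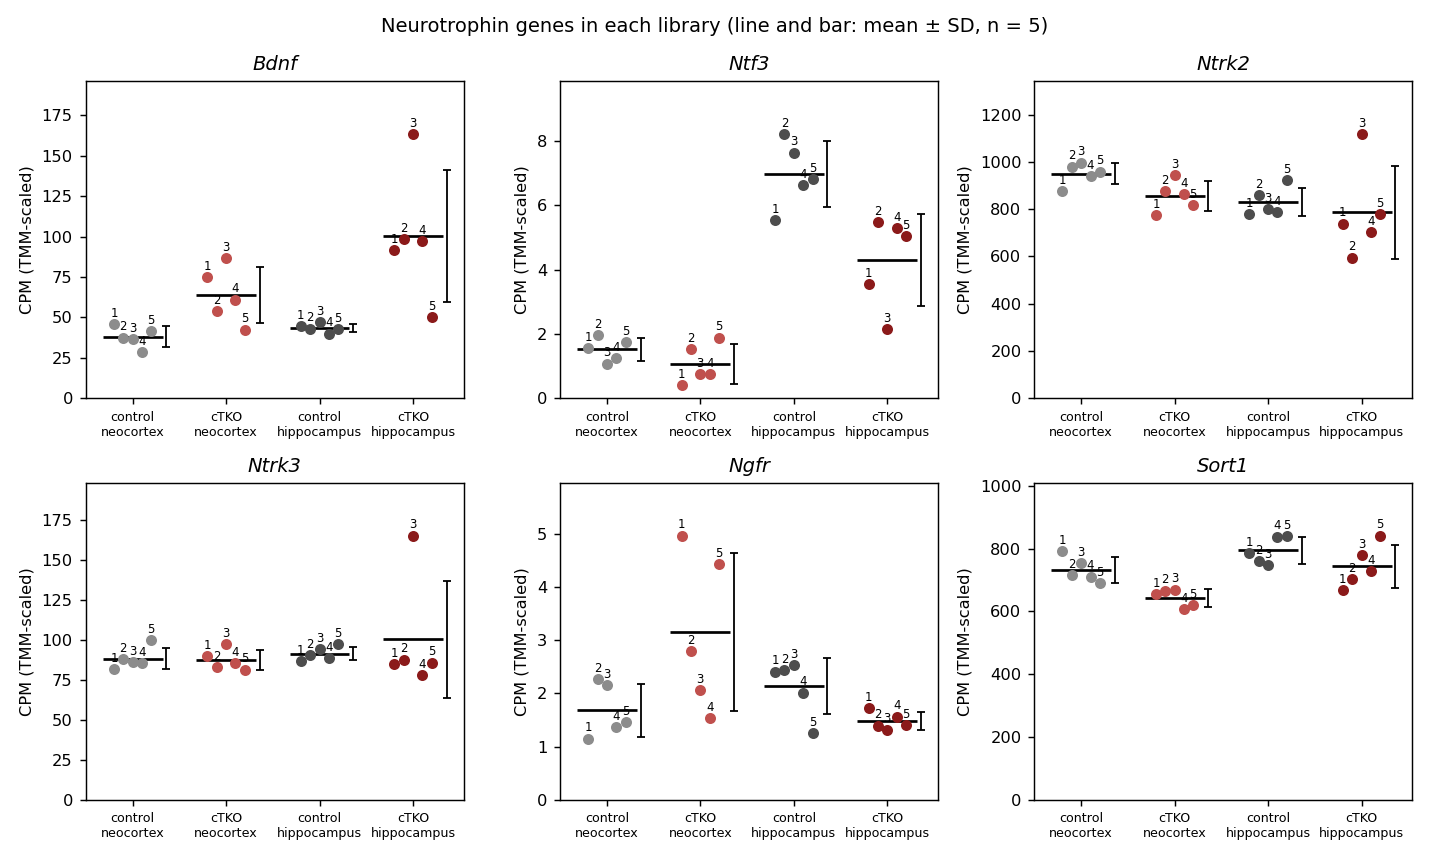
Level of each of the 6 genes in CPM on TMM library sizes, with 1 point per library, numbered as in the text, for the 4 groups on the x axis; lines and bars give mean ± SD (n = 5). Bdnf in cTKO hippocampus lies between 50.1 and 164 CPM, above all control hippocampal libraries, and library 3 of that group is highest for Bdnf, Ntrk2 and Ntrk3.

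Bdnf was higher in cTKO mice than in controls, and the change passed the test in the hippocampus. In libraries 1 to 5 of control hippocampus it was at 44.5, 43.0, 47.0, 39.9 and 42.8 CPM. In cTKO hippocampus it was at 91.7, 98.6, 164, 97.4 and 50.1 CPM. All 5 cTKO libraries lay above all 5 controls, but library 5 exceeded the highest control only slightly and library 3 stood far above the rest. Mean levels were 100 ± 40.7 CPM and 43.4 ± 2.60 CPM (SD, n = 5), so cTKO libraries also spread more widely. The log2 fold change was 1.21 (SE 0.22, 95% interval from 0.73 to 1.70), a 2.32-fold rise, and its FDR was 0.0347 by the quasi-likelihood test of edgeR. The exact permutation test gave p = 0.00794, the smallest value that 5 libraries against 5 allow. Whether more cells held Bdnf mRNA or each cell held more cannot be told apart in bulk tissue, for this and every gene below. Bdnf was the only one of the 6 genes called in the hippocampus, where 0.489% of 13702 genes tested were called in either direction.

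The size of the hippocampal rise was stable while its call was not. When single libraries were left out, for each of the 10, its log2 value lay between 0.97 and 1.38, and the FDR ranged from 0.0014 to 0.120. The call was lost in 8 of the 10 cases and held without cTKO library 3 (0.97, FDR 0.0308) or cTKO library 5 (1.38, FDR 0.0014). Without cTKO library 4, which held embryonic transcripts, the values were 1.21 and an FDR of 0.0548 in the quasi-likelihood test.

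In the neocortex Bdnf was at 45.8, 37.5, 36.4, 28.2 and 41.7 CPM in control libraries 1 to 5. In cTKO libraries it was at 74.8, 53.9, 86.9, 61.03 and 42.3 CPM. Libraries 1 to 4 lay above all controls, and library 5 fell within the control range. The 6 markers of inhibitory neurons, all detected in each group, summed to 1192, 1166, 1141, 1152 and 914 CPM in these cTKO libraries and to between 891 and 1023 CPM in controls, and thus were also above all controls in libraries 1 to 4. Sums of excitatory neuron markers, given with Ntrk2 below, lay under those of all controls in libraries 1, 2, 4 and 5, but not 3. The part of either cell type in the result was not tested. The log2 fold change was 0.76 (SE 0.17, 95% interval from 0.39 to 1.12), with an FDR of 0.108 in the quasi-likelihood test, and the exact permutation test gave p = 0.0159. None of the 6 genes was called in the neocortex by this test, where 0.188% of 13843 genes were called and 1444 had an unadjusted p under 0.05. Without cTKO library 5, the one with embryonic transcripts, the change was 0.87 with an FDR of 0.0121. Bdnf also passed with edgeR's exact test (0.76, FDR 0.0044), the likelihood ratio test (0.76, FDR 0.0044) and DESeq2 (0.75, FDR 0.0024).

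Ntf3, the other ligand, was lower in cTKO hippocampus in every library but did not pass the test across genes. Control libraries 1 to 5 were at 5.53, 8.22, 7.64, 6.62 and 6.81 CPM, and cTKO libraries at 3.53, 5.49, 2.14, 5.30 and 5.05 CPM. The highest cTKO library, at 5.49, lay just under the lowest control, at 5.53, and library 3 was the lowest. The log2 fold change was -0.69 (SE 0.23, 95% interval from -1.19 to -0.20), with an FDR of 0.241 in the quasi-likelihood test and p = 0.00794 in the exact permutation test. Without cTKO library 4 it was -0.79 (FDR 0.199). Bdnf and Ntf3 were 2 of the 6 genes whose hippocampal groups did not overlap, which was so for 3.01% of all genes tested there. In the neocortex Ntf3 was at 1.56, 1.97, 1.07, 1.24 and 1.74 CPM in controls and 0.407, 1.52, 0.750, 0.738 and 1.88 CPM in cTKO mice. Libraries 1, 3 and 4 lay below all controls and the other 2 within their range. Here the log2 fold change was -0.55 (SE 0.36, 95% interval from -1.33 to 0.22), with an FDR of 0.634 in the quasi-likelihood test, and without library 5 it was -0.83 (FDR 0.327).

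**Figure D2:**
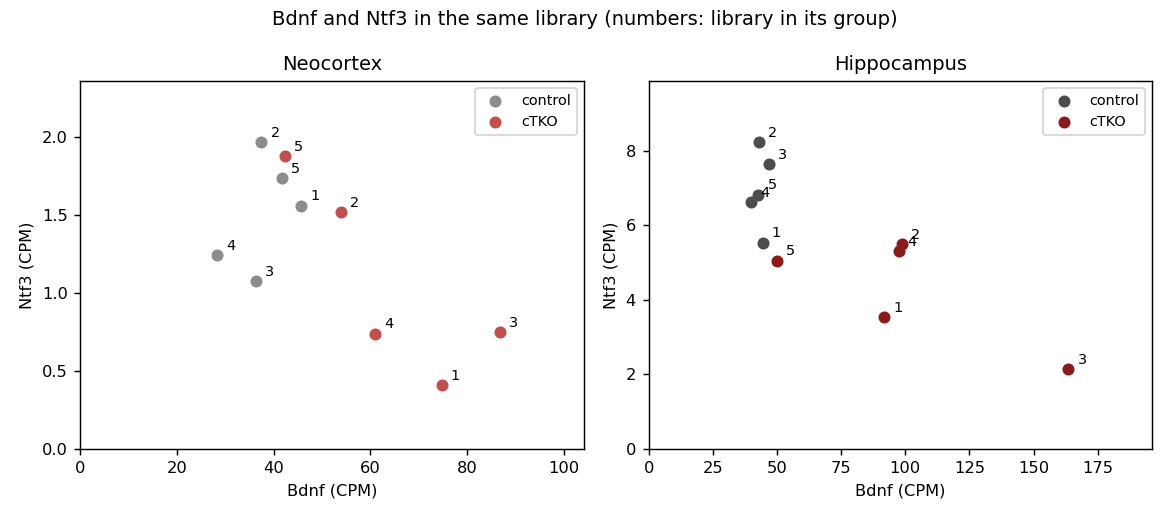
Bdnf (x axis, CPM) against Ntf3 (y axis, CPM) in the same library, in the neocortex and in the hippocampus, with 1 point per library (n = 5 per genotype) and its number. In the hippocampus the library with the highest Bdnf, cTKO library 3 at 164 CPM, has the lowest Ntf3, 2.14 CPM.

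Over the 20 libraries of both genotypes, higher Bdnf went with lower Ntf3. After the mean of each region was subtracted, Pearson's r between log2 CPM of Bdnf and Ntf3 was -0.74, the lowest among the 15 pairs of the 6 genes, and the highest was 0.73 between Ntrk2 and Ntrk3. These values describe libraries that share genotype, region and depth, and carry no test. The means of the genotypes were not subtracted, so r includes the higher Bdnf and lower Ntf3 of cTKO mice. In control neocortex the libraries lowest in Bdnf, 3 and 4, were also the lowest in Ntf3. In control hippocampus library 3 lay above the control medians of both ligands. Library 1 there lay above the median for Bdnf and was lowest for Ntf3. Whether the ligands ran in opposite directions within a genotype was not tested. In the plot of Bdnf against Ntf3, cTKO library 5 of the neocortex lies among the controls for both ligands, at 42.3 and 1.88 CPM.

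Ntrk2, which encodes the BDNF receptor TrkB, differed little between genotypes. In control neocortex it was at 877, 980.0, 998, 941 and 959 CPM, and in cTKO neocortex at 776, 876, 946, 863 and 816 CPM. Libraries 1, 2, 4 and 5 of the cTKO mice lay below all controls, the closest at 876 against 877 CPM, and library 3 within their range. Ntrk2 had a log2 fold change of -0.14 there (SE 0.063, 95% interval from -0.28 to -0.0094), with an FDR of 0.438 in the quasi-likelihood test and p = 0.0317 in the exact permutation test. Without cTKO library 5 it was -0.13 (FDR 0.473). The 6 markers of excitatory neurons, all detected in each group, summed to 8166, 8998, 10468, 8706 and 8468 CPM in cTKO libraries 1 to 5 and to between 9281 and 10397 CPM in control neocortex, so that the same 4 libraries lay below all controls. The 6 markers of astrocytes summed to 1820, 1932, 2243, 2153 and 1683 CPM in these cTKO libraries and to between 1814 and 2202 CPM in controls. Library 3 was thus above all controls and library 5 below them. The part of either cell type in the result was not tested. In control hippocampus Ntrk2 was at 779, 861, 801, 789 and 924 CPM, and in cTKO hippocampus at 739, 595, 1119, 703 and 779.7 CPM. Library 3 was the highest of all 20 libraries and library 2 the lowest. Its hippocampal log2 fold change of -0.073 (95% interval from -0.37 to 0.22) had an FDR of 0.899 in the quasi-likelihood test. It became -0.23 without cTKO library 3 (FDR 0.311) and 0.011 without cTKO library 2 (FDR 0.987).

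Ntrk3, which encodes the NT-3 receptor TrkC, was at 82.0, 88.0, 86.3, 85.6 and 99.8 CPM in control neocortex and 89.8, 83.1, 97.2, 85.6 and 81.4 CPM in cTKO neocortex. The groups overlapped almost fully, and the interval of the log2 fold change, from -0.15 to 0.14, leaves room for only small changes. In the hippocampus it was at 86.9, 90.7, 94.2, 88.5 and 97.3 CPM in controls and 84.9, 87.7, 165, 78.1 and 85.8 CPM in cTKO mice. Library 3 stood apart, and the other 4 lay below 4 of the 5 controls. In log2 terms the change was 0.14 (95% interval from -0.24 to 0.52, FDR 0.824 in the quasi-likelihood test) and turned to -0.12 (FDR 0.469) without library 3.

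Ngfr encodes p75, a receptor of the tumour necrosis factor receptor family that binds all neurotrophins and their precursors. In control neocortex it was at 1.15, 2.26, 2.15, 1.37 and 1.46 CPM, and in cTKO neocortex at 4.97, 2.79, 2.06, 1.53 and 4.43 CPM. Libraries 1, 2 and 5 lay above all controls and the other 2 within their range. This log2 fold change of 0.93 (SE 0.33, 95% interval from 0.23 to 1.64) had an FDR of 0.326 in the quasi-likelihood test. The exact permutation test gave p = 0.0635. In the hippocampus Ngfr was at 2.41, 2.44, 2.53, 2.01 and 1.26 CPM in controls and 1.73, 1.39, 1.32, 1.56 and 1.40 CPM in cTKO mice. All cTKO libraries lay below controls 1 to 4 and above control 5. Hippocampal Ngfr thus had a log2 fold change of -0.52 (SE 0.21, 95% interval from -0.99 to -0.061, FDR 0.351 in the quasi-likelihood test). Here the exact permutation test gave p = 0.0556.

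Markers of meningeal fibroblasts, cells that can hold p75, moved with neocortical Ngfr in part. All 5 markers (Dcn, Lum, Col1a1, Col1a2 and Slc6a13) were detected in each group, and they summed to between 48.3 and 76.7 CPM in control neocortex. In cTKO neocortical libraries 1 to 5 they summed to 88.6, 84.1, 64.4, 81.9 and 214 CPM. The 2 libraries with the highest Ngfr, 1 and 5, also had the highest sums. Without library 5, Ngfr differed by 0.80 (FDR 0.340 in the quasi-likelihood test), and without library 1 by 0.69 (FDR 0.499). The part of these cells in the result was not tested.

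Sort1 was slightly lower in cTKO neocortex. It was at 792, 716, 755, 711 and 689 CPM in control libraries and 654, 666, 669, 606 and 620.3 CPM in cTKO libraries. All 5 cTKO libraries lay below all 5 controls, which held for 2.39% of all genes tested in the neocortex in either direction, and Sort1 was the only one of the 6. Sort1 had a log2 fold change of -0.18 (SE 0.054, 95% interval from -0.30 to -0.062), with an FDR of 0.241 in the quasi-likelihood test and p = 0.00794 in the exact permutation test. Without cTKO library 5 it was -0.17 (FDR 0.226), and with all 10 libraries DESeq2 called Sort1, with an FDR of 0.0372. In the hippocampus Sort1 was at 785, 759.8, 747, 838 and 839.6 CPM in controls and 668, 703, 778, 727 and 841 CPM in cTKO mice. These groups overlapped, and library 5 of the cTKO mice was the highest of the 10. Its log2 fold change there was -0.089 (95% interval from -0.24 to 0.064, FDR 0.689 in the quasi-likelihood test).

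**Figure D3:**
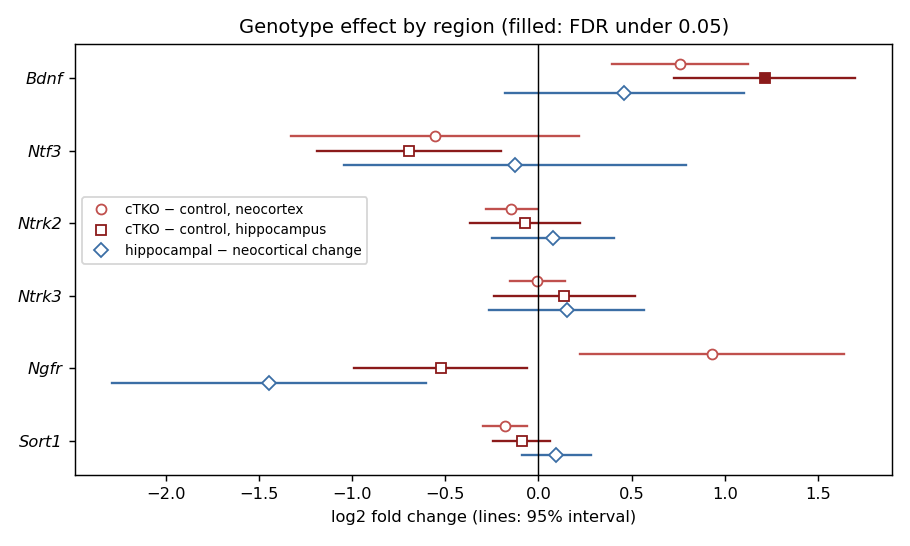
Log2 fold change between cTKO mice and controls for the 6 genes in the neocortex (circles) and hippocampus (squares), and the difference between these changes (diamonds), with 95% intervals; filled symbols have an FDR under 0.05. Hippocampal Bdnf, at 1.21, is the only filled symbol. Ngfr is the gene whose changes lie on opposite sides of 0 with intervals that exclude it. These intervals are not adjusted for the number of genes, and neither change of Ngfr was called.

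Whether the genotype effect differed between the regions was tested by the region by genotype interaction. None of the 6 genes passed, where 0.0564% of 14192 genes tested were called and 532 had an unadjusted p under 0.05, and none passed with DESeq2 or the likelihood ratio test. The difference for Bdnf was 0.46 (SE 0.31, 95% interval from -0.18 to 1.10), which does not show that the rise was larger in the hippocampus, nor that it was equal. Ngfr had the smallest p of the 6 genes, with a difference of -1.44 (SE 0.40, 95% interval from -2.29 to -0.60) and its FDR was 0.494 by the quasi-likelihood test. For Ntf3, Ntrk2, Ntrk3 and Sort1 the differences were -0.12, 0.078, 0.15 and 0.097, and their intervals all held 0.

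Among these genes Ntf3 differed most between hippocampus and neocortex. It was 4.55-fold higher in the hippocampus of controls (log2 difference 2.19, SE 0.30, FDR 3.49e-06) and 4.17-fold higher in that of cTKO mice (2.06, SE 0.31, FDR 1.30e-05) in the quasi-likelihood test. In either genotype no hippocampal library overlapped a neocortical one, which in controls held for 43.5% and in cTKO mice for 28.5% of all genes tested. Ntf3 was the only one of the 6 called in controls, where 51.1% of 14192 genes were called. Bdnf, at 0.19 (95% interval from -0.27 to 0.65), and Sort1, at 0.12 (95% interval from -0.013 to 0.25), did not pass there. The values of Ntrk2, Ntrk3 and Ngfr were -0.19, 0.052 and 0.36, and these did not pass either. Ntrk2 passed in controls when the control groups were fitted alone (-0.20, FDR 0.0067) or when hippocampal cTKO library 3 was left out of the common fit (-0.19, FDR 0.0306).

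In cTKO mice 4 of the 6 genes were called between the regions, where 49.6% of all genes were called. Besides Ntf3, the hippocampus was higher in Bdnf (0.65, SE 0.22, FDR 0.0152) and Sort1 (0.21, SE 0.062, FDR 0.0070) and lower in Ngfr (-1.08, SE 0.28, FDR 0.0031) in the quasi-likelihood test. The regions overlapped for these 3 genes. The call of Bdnf was lost without hippocampal library 3 (0.41, FDR 0.0808) and without the 2 libraries that held embryonic transcripts (0.53, FDR 0.0618). Without these 2 libraries Ngfr (-0.99, FDR 0.0128) and Sort1 (0.19, FDR 0.0337) still passed. With the cTKO groups fitted alone, Bdnf (0.64, FDR 0.0676) and Sort1 (0.20, FDR 0.0514) did not pass. That a gene was called in cTKO mice and not in controls is not a difference between the genotypes, which the interaction above tests.

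The cTKO libraries did not move as a block. Relative to the median of the 5 controls of its region, Bdnf was 1.995-, 1.44-, 2.32-, 1.63- and 1.13-fold in neocortical cTKO libraries 1 to 5. In the hippocampus the ratios were 2.13-, 2.29-, 3.80-, 2.26- and 1.16-fold. Library 3 was highest and library 5 lowest in both regions, although the labels do not tie these numbers to a mouse. Libraries 3 and 5 were also the cTKO libraries with high Xist, a transcript of females. It was at 489 and 463 CPM in the hippocampus and 767 and 1235 CPM in the neocortex, and at most 0.616 CPM in the other cTKO libraries. The part of sex in the spread of these libraries was not tested. In hippocampal library 3, Ntrk2 was at 1.40-fold and Ntrk3 at 1.82-fold of the control median, and Ntf3 at 0.314-fold. Of 19 genes induced by activity or neurotrophins, such as Egr1, that library was the highest of its group in 17. Over all genes it was the highest in 19.2%. Such a lead was not particular to this library. Control library 1 was the highest of its group in 14 of the 19 genes in the neocortex and in 12 in the hippocampus. Over all genes control library 1 was the highest in 26.9% and 17.3%. The part of the activity-induced genes in the values of hippocampal cTKO library 3 was not tested.

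**Figure D4:**
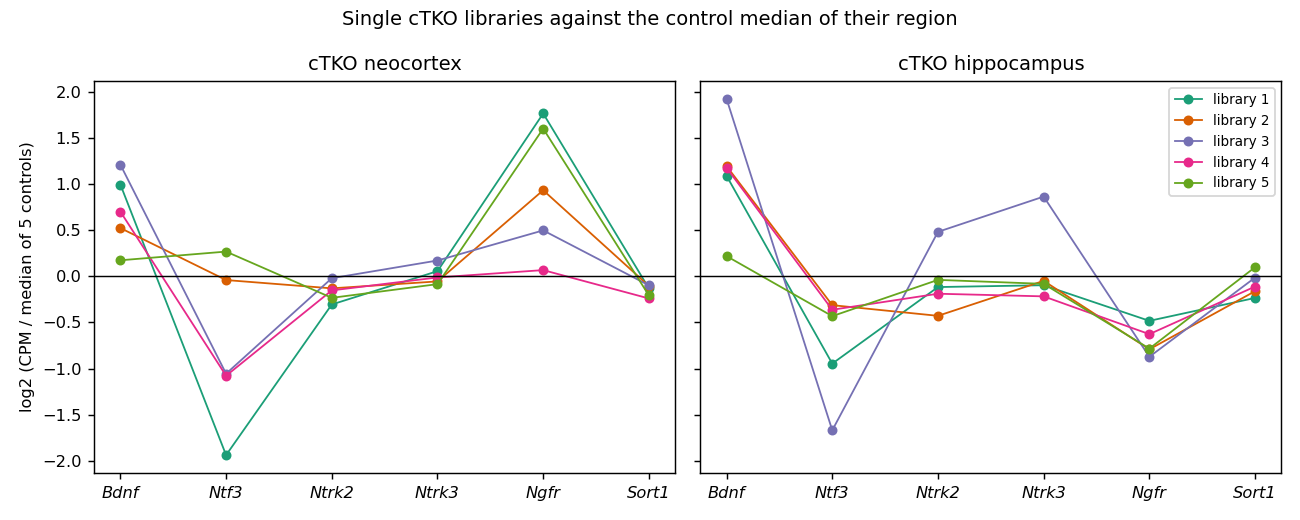
Ratio of each cTKO library to the median of the 5 controls of its region on a log2 scale (y axis) for the 6 genes (x axis), with 1 line per library and a panel per region. In the hippocampus library 3 departs from the others for Bdnf, Ntf3, Ntrk2 and Ntrk3, at 3.80-, 0.314-, 1.40- and 1.82-fold, and library 5 stays near the controls for Bdnf, at 1.16-fold.

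The genes whose levels ran most like each of the 6 were taken by Pearson's r of log2 CPM over the 20 libraries, after the mean of each region was subtracted. These values are a description, since the libraries share genotype and region. Bdnf ran most like Ptgs2 (0.90), which encodes the inducible cyclooxygenase, Scg2 (0.89), a secretogranin of dense-core vesicles, and Grb2 (0.89), an adaptor of receptor tyrosine kinases. Without hippocampal cTKO library 3 these fell no lower than 0.842. For Ntf3 the genes were Nyx (0.86), Gm5141 (0.81) and Klhdc1 (0.80). For Ntrk2 they were Zfp142 (0.86), Phlpp1 (0.85) and Lrp4 (0.85). Those for Ntrk3, Fmnl1 (0.90), Arhgef7 (0.88) and the activity-induced Egr3 (0.87), rested on 1 library, since they fell to 0.574, 0.562 and 0.440 without hippocampal cTKO library 3. Ngfr had the weakest likeness, with Cd274 (0.75), Asap3 (0.74) and Gja5 (0.74). Sort1 ran most like Tmppe (0.90), Tppp (0.89) and Camk4 (0.88).

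The other genes of the pathway were taken from 6 lists with 128 genes. In the neocortex 115 of them were tested, of which 0 were higher and 1 was lower in cTKO mice, or 0.870%, beside 0.188% of all genes. In the hippocampus 115 were tested, of which 2 were higher and 1 was lower, or 2.61%, beside 0.489% of all genes. None of 116 passed in the interaction, where 0.0564% of all genes did. These are counts of the quasi-likelihood test. The shares rest on few genes, and the lists were chosen with earlier results of these data known. The shares are thus no measure of enrichment. The plot of the pathway genes shows the called genes by name.

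Npas4, an activity-induced transcription factor that can drive Bdnf, was called in both regions and was lower. In the neocortex it was at 48.2, 51.9, 38.8, 41.8 and 59.3 CPM in controls and 27.9, 27.1, 28.2, 31.1 and 22.02 CPM in cTKO mice. In the hippocampus it was at 23.2, 19.6, 9.53, 14.0 and 19.8 CPM in controls and 6.37, 5.88, 9.26, 7.95 and 3.44 CPM in cTKO mice. The groups did not overlap in either region. For Npas4 the log2 fold changes were -0.81 (SE 0.12, FDR 0.0144) and -1.38 (SE 0.27, FDR 0.0434) in the quasi-likelihood test. When single libraries were left out, these calls were lost in 3 of 10 cases in the neocortex (controls 1 and 2 and cTKO library 2) and in 7 of 10 in the hippocampus (controls 1, 2, 4 and 5 and cTKO libraries 1, 2 and 4). Without the libraries that held embryonic transcripts the values were -0.75 (FDR 0.0068) in the neocortex and -1.46 (FDR 0.0543) in the hippocampus. Over 12 other settings Npas4 passed in 10 for the neocortex (highest FDR 0.167) and in 9 for the hippocampus (highest FDR 0.115), and the fit with the library number as a block was among those in which it did not pass in either region. The other 16 regulators of Bdnf on the list, among them Creb1 and Rest, did not pass in either region, and the median of all 17 was -0.051 for the neocortex and -0.025 for the hippocampus, beside 0.0090 and 0.0049 over all genes tested.

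Sorcs1, a sorting receptor of the same family as Sort1, was higher in cTKO hippocampus. It was at 13.6, 14.1, 11.8, 12.5 and 13.3 CPM in controls and 22.4, 18.99, 16.7, 20.02 and 18.7 CPM in cTKO mice, without overlap. The log2 fold change was 0.57 (SE 0.092, FDR 0.0186 in the quasi-likelihood test). Pcsk5, a proprotein convertase that can cut neurotrophin precursors, was at 15.1, 18.1, 17.3, 15.5 and 17.1 CPM in controls and 27.7, 27.5, 31.9, 21.6 and 21.3 CPM in cTKO hippocampus, also without overlap. Its log2 fold change was 0.65 (SE 0.11, FDR 0.0257 in the quasi-likelihood test). When single libraries were left out, the call was lost in 3 of 10 cases for Sorcs1 and 7 of 10 for Pcsk5. Without cTKO library 4 the values were 0.55 (FDR 0.0358) for Sorcs1 and 0.70 (FDR 0.0172) for Pcsk5. In the neocortex the values were 0.14 (FDR 0.634) for Sorcs1 and 0.28 (FDR 0.399) for Pcsk5.

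Of the remaining genes on these 2 lists, none passed in a genotype comparison. Ntf5, which encodes the ligand NT-4, lay below the filter in both regions, at no more than 0.822 CPM in any library. Tnfrsf19 had the smallest p of the other ligands and receptors in the neocortex, at 0.10 (FDR 0.523 in the quasi-likelihood test).

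All 42 genes of Trk and p75 signalling were tested, and none passed the quasi-likelihood test in either region. Pik3r1, a regulatory subunit of PI3 kinase, had the smallest p in the neocortex, at -0.27 (SE 0.053, FDR 0.0630 in the quasi-likelihood test). Grb2 had it in the hippocampus, at 0.35 (SE 0.090, FDR 0.126). Pik3r1 passed in the neocortex in 3 of 12 other settings, edgeR's exact and likelihood ratio tests and DESeq2 (lowest FDR 9.79e-05), and Grb2 in the hippocampus in these and in the fit of all 20 libraries (lowest FDR 0.0146). The list had a neocortical median of -0.032 and a hippocampal one of -0.013, close to those of all genes. None of the 19 activity- and neurotrophin-induced genes passed the quasi-likelihood test either. Npy, a neuropeptide that BDNF is known to induce, had the smallest p in both regions, at 0.57 (FDR 0.124) in the neocortex and 1.26 (FDR 0.0654) in the hippocampus. It was at 249.7, 277, 136, 143 and 80.3 CPM in hippocampal cTKO libraries 1 to 5 and between 63.9 and 82.0 CPM in controls, so that library 5 fell within the control range, as it nearly did for Bdnf. Npy passed in 3 of 12 other settings in the neocortex (lowest FDR 0.0065) and in 5 in the hippocampus (lowest FDR 0.000514), in both regions with DESeq2 and with edgeR's likelihood ratio and exact tests. Markers of inhibitory neurons, which express Npy, summed to 1021, 980.1, 943, 794 and 939.8 CPM in hippocampal cTKO libraries 1 to 5 and to between 718 and 905 CPM in controls, and their neocortical sums stand beside Bdnf above. Their part in the values of Npy was not tested. The median over these 19 was -0.098 for the neocortex and 0.28 for the hippocampus. Among 15 and 16 tested genes of other trophic factors and receptors, Gfra2 had the smallest p, at 0.30 (FDR 0.344) in the neocortex and -0.56 (FDR 0.347) in the hippocampus, and none passed.

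**Figure D5:**
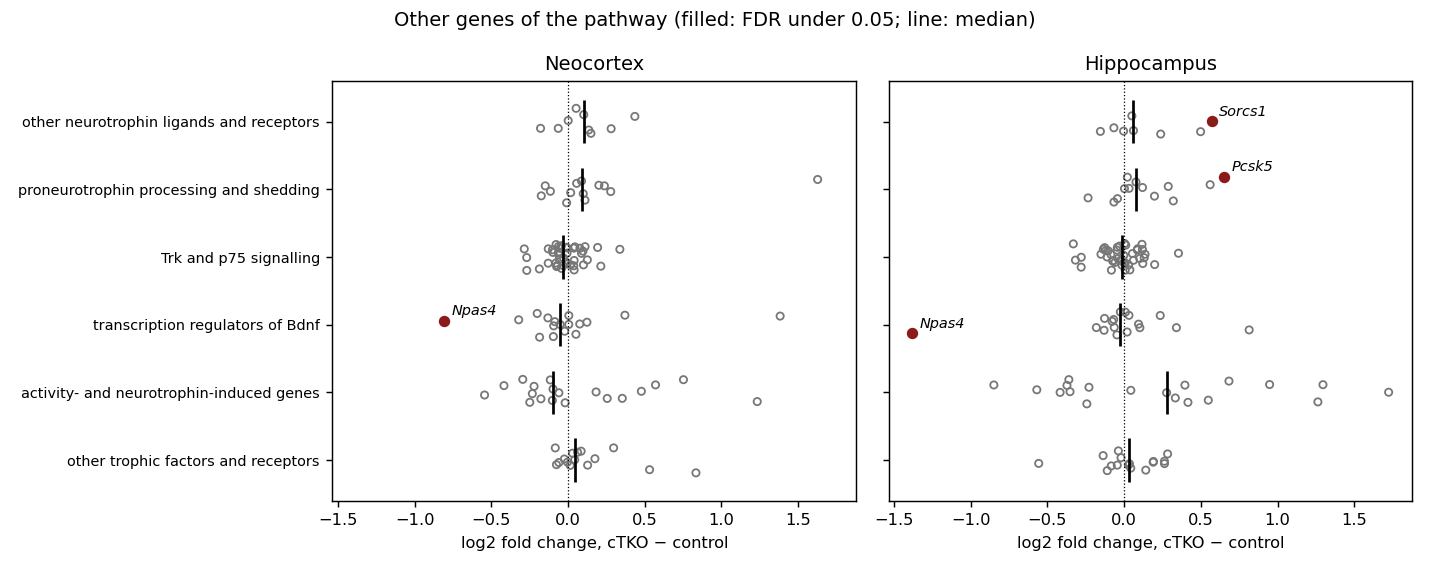
Log2 fold change between cTKO mice and controls (x axis) for each tested gene of the 6 pathway lists in the neocortex (115 genes) and the hippocampus (115 genes); vertical lines give list medians and filled points have an FDR under 0.05. Npas4 is filled in both regions, at -0.81 and -1.38, and Sorcs1 and Pcsk5 in the hippocampus, at 0.57 and 0.65.

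Between regions, 19 of the 116 pathway genes were higher and 35 lower in the hippocampus of controls, or 46.6%, and 23 were higher and 33 lower in that of cTKO mice, or 48.3%, beside 51.1% and 49.6% of all genes. In controls, the leukaemia inhibitory factor Lif (1.65) was higher in the hippocampus, as Ntf3 was, and the GDNF co-receptors Gfra1 (0.98) and Gfra2 (-1.23) went opposite ways in log2 difference. Among the receptors, Sorcs1 (-2.21) and Lingo1 (-0.86), a partner of p75, were lower there. The convertase Pcsk1 was lower (-1.17), and carboxypeptidase E, Cpe (0.71), and Pcsk6 (0.64) were higher. Of the regulators of Bdnf, Mef2c (-2.62), Npas4 (-1.48) and Bhlhe40 (-0.68) were lower. The signalling genes Pik3r1 (-0.81), Sh2b2 (-0.66) and Shc3 (-0.57) and the activity-induced Egr2 (-2.57), Egr1 (-2.16) and Nptx2 (-1.61) were also lower. Each of these log2 differences had an FDR under 0.05 in the quasi-likelihood test.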

How the data were processed

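RNA-seq was available from the neocortex and hippocampus of 5 cTKO mice and 5 littermate controls per region. The authors enriched poly-A RNA, mapped single-end reads to mm10 with STAR 2.5.4a, used HTSeq for counting on genes, and deposited raw counts per gene symbol for each library. The annotation and the strand setting of HTSeq are not given in the sources used here. Every deposited column is a sample of the series.

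Counts were analysed with edgeR 4.0.16 in R 4.3.3. Only genes above a CPM of 1 in 5 or more libraries entered, TMM scaled the library sizes, and genotypes were compared within each region (10 libraries) by the quasi-likelihood test. The regions and the region by genotype interaction were tested in 1 fit of all 20 libraries. P values were adjusted after Benjamini-Hochberg across all genes of a fit, and an FDR under 0.05 was called. They weigh a difference between groups against the spread between these libraries. The main fit between regions did not pair libraries. Single genes were also compared by exact permutation tests, two-sided, of log2 CPM with a prior count of 2, with 252 splits. CPM per kilobase used the joined length of all exons of a gene in GENCODE M21. Alternatives were other tests (edgeR's exact and likelihood ratio tests, a robust fit, DESeq2 1.42.0), scalings, filters, samples in the fit, Xist as a covariate, the library number as a block, and each library left out. The quasi-likelihood fits of the hippocampal genotype effect and of the interaction were also run on simulated data. That simulation gave all genes and groups the same dispersion, unlike the unequal spread of Bdnf in the hippocampus, so its outcome is not used here.

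In controls the library numbers paired the regions: deviations from the group means of same-numbered libraries correlated at 0.129 to 0.334, and each library correlated best with its own number. The labels do not say what a number marks. The block left the calls of the 6 genes between regions in controls as they were.

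The 6 genes, the 6 pathway lists and the 13 marker lists were chosen with earlier results of these data known. The text names the 6 genes, App, Aplp1 and Aplp2, pathway genes with an FDR under 0.05 for genotype or interaction, otherwise the list's smallest p in a region, the 3 largest region differences of each list in controls, the 3 genes most like each of the 6, and defining markers at or near 0. Ntf5, Creb1, Rest and the fibroblast markers fall outside this rule and were added after their values were seen. Results of 3 listed genes are not reported here. Of the deposited files no table of the authors' own comparisons was used.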

Additional observations from a re-analysis of the deposited data

Results flagged for a closer look

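Of 24 sets of 5 libraries (6 genes in 4 groups), 1 held a library far from the others. Ntrk3 in cTKO hippocampal library 3 was at 165 CPM, while the other 4 libraries of that group were between 78.1 and 87.7 CPM. The gap to the nearest library took up 0.889 of the whole range, above Dixon's critical value of 0.710 for 5 samples. Chance alone flags about 1 in 20 such sets. Without this library the genotype effect on Ntrk3 in the hippocampus was -0.12 (log2) in place of 0.14, and neither value passed the test.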

How the results depend on the processing

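The number of the 6 genes called for genotype in the neocortex was 0 in the quasi-likelihood test and 1, 1 and 2 with edgeR's exact test, its likelihood ratio test and with DESeq2. Bdnf there had log2 fold changes of 0.76, 0.76 and 0.75 in these and passed. In the hippocampus the robust fit called 0 of the 6, as Bdnf (1.21) reached an FDR of 0.0713. Between regions in controls, 0 were called with at least 10 counts required in every library, which drops Ntf3, and 2 with the control groups alone; in cTKO mice 2 were called with these groups alone. The Ntf3 interaction turned to 0.050 without the 2 libraries that held embryonic transcripts. For these reversals and lost calls the cause was not tested, apart from the genes the filter dropped.

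When each library in turn was left out, the 6 genes gave 0 to 1 calls for genotype in either region and 1 to 2 between regions in controls. The log2 fold change of Bdnf ranged from 0.62 to 0.87 in the neocortex and from 0.97 to 1.38 in the hippocampus. Exact permutation p values under 0.05 were reached by 2 to 4 genes for genotype in the hippocampus and by 2 to 4 between regions in controls. The share of all genes that reached this was not computed, so these counts are no result about the 6 genes. Ranges that crossed 0 were those of Ntrk3 (-0.046 to 0.038 in the neocortex, -0.12 to 0.21 in the hippocampus, -0.051 to 0.27 between regions in cTKO mice), Ntrk2 in the hippocampus (-0.23 to 0.011), and the interactions of Ntf3 (-0.37 to 0.13), Ntrk2 (-0.083 to 0.16) and Ntrk3 (-0.10 to 0.22).

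The numbers of same-numbered genotype pairs whose deviations correlated above 0.1 were 3 of 5 in the neocortex and 1 of 5 in the hippocampus, and 3 of 5 between regions in cTKO mice, fewer than all 5 in each. In cTKO mice numbers 1 to 3 correlated between regions at 0.345, 0.319 and 0.396 and numbers 4 and 5 at -0.057 and -0.071, beside a mean of -0.042 for other numbers, and whether they mark the same mouse is not given in the labels. The library correlated best with its own number in 4, 1 and 3 of 5. The replicate block changed no call of the 6 genes, and Npas4 lost its call with it, at -0.80 (FDR 0.0655) in the neocortex and -1.38 (FDR 0.115) in the hippocampus. With it, Bdnf was at 0.73 (FDR 0.098) in the neocortex and 1.12 (FDR 0.0419) in the hippocampus, and the numbers of genes called over all genes were 12 and 58, with 18 for the interaction. Over all genes the quasi-likelihood test called 26 genes in the neocortex, against 163, 167 and 221 with these 3 tests and 42 without a filter. In the hippocampus it called 67, against 258, 259 and 331, and 189 in 1 fit of all 20 libraries. With single libraries left out these counts ranged from 7 (without control 1, control 2 or cTKO library 2) to 133 (without cTKO library 5; 120 without cTKO library 3) in the neocortex and from 15 (without control 4) to 149 (without cTKO library 5) in the hippocampus. The interaction had 8 calls, against 26 with the likelihood ratio test and 26 with DESeq2. Counts of 9 to 38 for neocortical Ntf3 and 21 to 110 for Ngfr limit what can be seen for these genes.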
